A study of Mus musculus with 4 samples.

Results

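The genes described here are 37 mouse genes of the type I interferon response, of which 35 were among the 32289 gene features of the deposited count matrices. Mx1 and Mx2 were not in that feature table and were not analysed here. The members were taken by name from a fixed list and not by any measured value, and each was followed one by one and as a sum in every cell type, sorted fraction and mouse. The cells came from the mesenteric lymph nodes (mLN) of 12 untreated Gm38411-iCre-hCD2 R26tdTomato mice, 15 days old. By the sort, CD3-B220-CD11c+MHC-II+ cells that carried tdTomato were split into a fraction without surface human CD2 (hCD2-) and a fraction with it (hCD2+). Both fractions therefore shared the Cre allele, the activated reporter, the age and the lack of treatment, and there was no group without the allele and no interferon-treated group. R26tdTomato is a reporter that stays on in a cell and its progeny once Cre has acted, and the hCD2 in the allele's name is a surface tag. Every mouse carried its own hashtag antibody and gave cells to both fractions, so the mouse was the replicate. Each fraction was 1 library on the Chromium 3′ v4 chemistry, so a difference between fractions and a difference between the library preparations cannot be told apart.

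Type I interferons bind the receptor chains Ifnar1 and Ifnar2, and the kinases Jak1 and Tyk2 then activate Stat2, which joins Irf9 in a complex that binds interferon-stimulated response elements in promoters. The induced genes block virus entry and release at membranes (Ifitm proteins, Bst2), bind or destroy viral RNA (Ifit and Oas proteins), modify proteins with Isg15, and sense nucleic acids (Ifih1, Dhx58, Zbp1 and the Ifi200 family). Many immune cells keep some of these genes on without infection, and plasmacytoid dendritic cells (pDC) are known for high Irf7 and Bst2 and for making large amounts of interferon once stimulated.

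The DNA letters that the response complex reads are short repeats of GAAA, and they were searched for because the members share a response and not because of any level measured here. The motif GAAANNGAAA, or its other strand TTTCNNTTTC, with N as any base, was looked for from 250 bases before to 50 bases after each annotated start in RefSeq sequence of the GRCm38.p6 assembly. It was present in 16 of the 27 members with a window (59.3%), against 1079 of 27025 genes with a window (3.99%). Counted by window, 1131 of all 32851 windows of that length (3.44%) held it. Overlapping copies were counted as parts of 1 stretch. Dhx58, Ifi204, Ifi27l2a, Oas2, Parp14, Rtp4, Usp18 and Zbp1 had no entry. The stretches below are shown for 6 members on which later results turn, read 5′ to 3′ on the gene's own strand, with the matching letters in capitals.
Isg15, chr4:156200863-156200908, minus strand: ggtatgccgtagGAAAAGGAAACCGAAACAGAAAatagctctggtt
Bst2, chr8:71537575-71537614, minus strand: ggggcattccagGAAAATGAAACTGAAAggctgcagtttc
Rsad2, chr12:26456551-26456584, minus strand: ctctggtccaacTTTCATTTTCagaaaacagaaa
Stat2, chr10:128270264-128270297, plus strand: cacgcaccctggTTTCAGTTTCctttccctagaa
Ifit3, chr19:34583361-34583428, plus strand: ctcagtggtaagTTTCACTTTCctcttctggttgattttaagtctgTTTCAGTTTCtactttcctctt
Ifi205, chr1:174031868-174031901, minus strand: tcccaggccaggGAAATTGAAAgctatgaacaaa
In the stretches shown, Isg15 and Bst2 held overlapping copies in tandem, Ifit3 a pair of separate copies, and Rsad2, Stat2 and Ifi205 1 copy each. The Ifi205 window held another copy on the other strand, 24 to 33 bases after the start, which is not shown. A match describes letters in a window and does not show that a factor was bound there. The members lay on many chromosomes, with 6 on chromosome 7, 5 on chromosome 5 and 4 each on chromosomes 1 and 19.

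After keeping droplets with exactly 1 hashtag, at least 500 genes and at most 10% mitochondrial counts, 11861 cells remained. They were 4762 hCD2- cells with a median of 23846 unique molecular identifiers (UMIs) and 7099 hCD2+ cells with a median of 17486. A mouse gave 234 to 592 cells and 5914558 to 16238728 UMIs in the hCD2- library, and 365 to 897 cells and 7269488 to 17966298 UMIs in the hCD2+ library. The kept cells of both libraries shared 9 barcodes. The labels call all cells dendritic cells (DCs), but 9 kinds of cluster with their own markers were seen in both libraries. The CCR7 migratory DC-like class held 947 hCD2- and 743 hCD2+ cells, the cDC2-like class 913 and 171, the cDC1-like class 254 and 88, and the pDC-like class 104 and 32. A class marked by genes that include Prdm16, Aire and Trp63, called Prdm16 or Aire DC-like, held 207 and 1251 cells. Cells with the markers of type 3 innate lymphocytes (ILC3) or lymphoid tissue inducer cells numbered 244 and 3068, natural killer (NK) or ILC1-like cells 422 and 62, T cell-like cells 885 and 278 despite the CD3- gate, and monocyte or macrophage-like cells 44 and 112. Clusters with few UMIs or mixed markers were left without a class. None of the members was among the genes used to make the clusters, and neither were the pathway and interferon gamma lists described last, but related genes outside these lists were not left out.

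Levels are given as CPM, the UMIs of a gene relative to all UMIs of the summed cells of a mouse, for mice with at least 10 cells of a class. Each UMI stands for 1 captured 3′ end, so the values are not divided by gene length. Summed over the 35 members, the level was highest in monocyte or macrophage-like cells, where the hCD2+ mice gave 4021, 8118 and 11771 CPM and the pooled hCD2- cells 5246 CPM. The 5 mice with enough hCD2- pDC-like cells ranged from 3493 to 5258 CPM, with a median of 4115. The sum was 1866 to 7066 CPM in hCD2- cDC1-like cells (median 2888, 11 mice) and 1405 to 2955 in hCD2- cDC2-like cells (median 1861). Lower levels with ranges that overlapped one another were found in hCD2- T cell-like cells (1026 to 2190, median 1357), CCR7 migratory DC-like cells (1075 to 1981, median 1219), NK or ILC1-like cells (857 to 2288, median 1118) and ILC3-like cells (719 to 2687, median 1052). The lowest hCD2- level was in Prdm16 or Aire DC-like cells, at 354 to 996 CPM with a median of 546 over 11 mice. In the hCD2+ library the same class stood at 1010 to 1484 CPM (median 1225), among the CCR7 migratory DC-like (937 to 1914, median 1251) and ILC3-like cells (910 to 1501, median 1084). In droplets of 10 to 100 UMIs, which hold free RNA, the sum was 1709 CPM in the hCD2- and 1218 CPM in the hCD2+ library. A level near these values in a class is not by itself a sign of expression. The values give the make-up of free RNA and not the amount it adds to a cell, which was not measured.

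**Figure D1:**
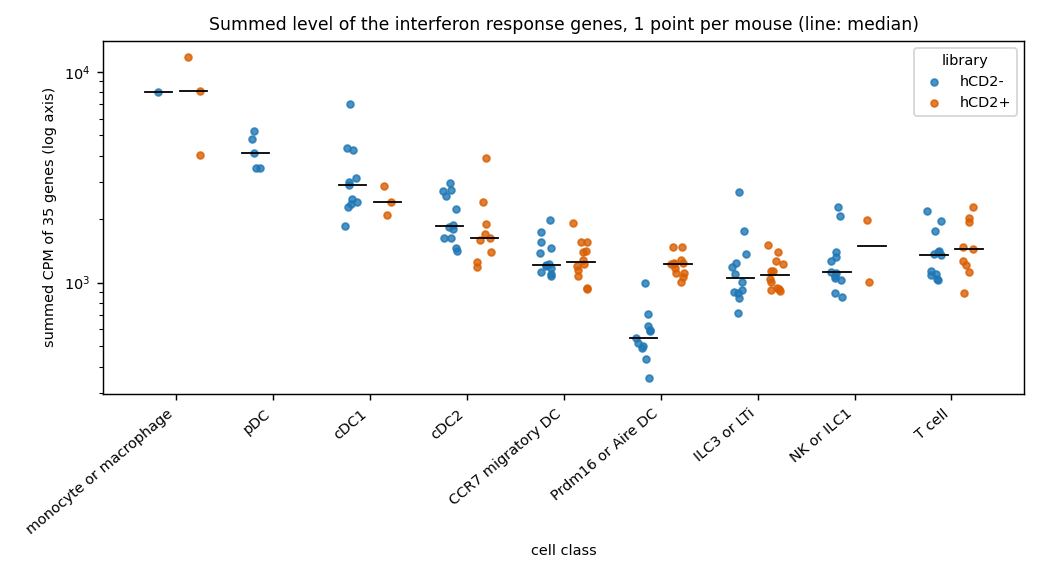
Summed CPM of the 35 members by class, with 1 point per mouse and the fractions side by side on a log axis. Monocyte or macrophage-like and pDC-like cells lie at the top, and Prdm16 or Aire DC-like cells are the class whose 2 fractions separate, at medians of 546 and 1225 CPM.

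A few members carried much of the sum, and they were different members in different classes. Bst2, also called tetherin, which holds budding virus at the cell surface, made up 57.2% of the sum in hCD2- and 63.4% in hCD2+ pDC-like cells, and 36.5% (hCD2+) but 10.4% (hCD2-) in the Prdm16 or Aire DC-like class. Ifi205, a DNA-binding member of the Ifi200 family, made up 36.2% and 44.5% in cDC1-like cells. Isg15, the ubiquitin-like protein that is attached to other proteins, made up 21.6% and 23.2% in CCR7 migratory DC-like cells. Ifi203, a further Ifi200 gene, made up 27.3% and 30.02% in ILC3-like cells. Ifitm3, which hinders virus entry from endosomes, made up 21.99% and 17.6% in monocyte or macrophage-like cells. Without Bst2, Ifi203 and Ifi205 the median sum fell to 1772 CPM in hCD2- pDC-like cells, and to 438 (hCD2-) and 664 CPM (hCD2+) in Prdm16 or Aire DC-like cells. By pooled level, 20 members in the hCD2- and 27 in the hCD2+ library were highest in monocyte or macrophage-like cells. In that class the 3 hCD2+ mice differed widely, with Ifit2 at 13.99, 130 and 475 CPM and Isg15 at 83.9, 786 and 922 CPM. Its Ifitm3, at 1175, 1677 and 1806 CPM, was less spread.

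**Figure D2:**
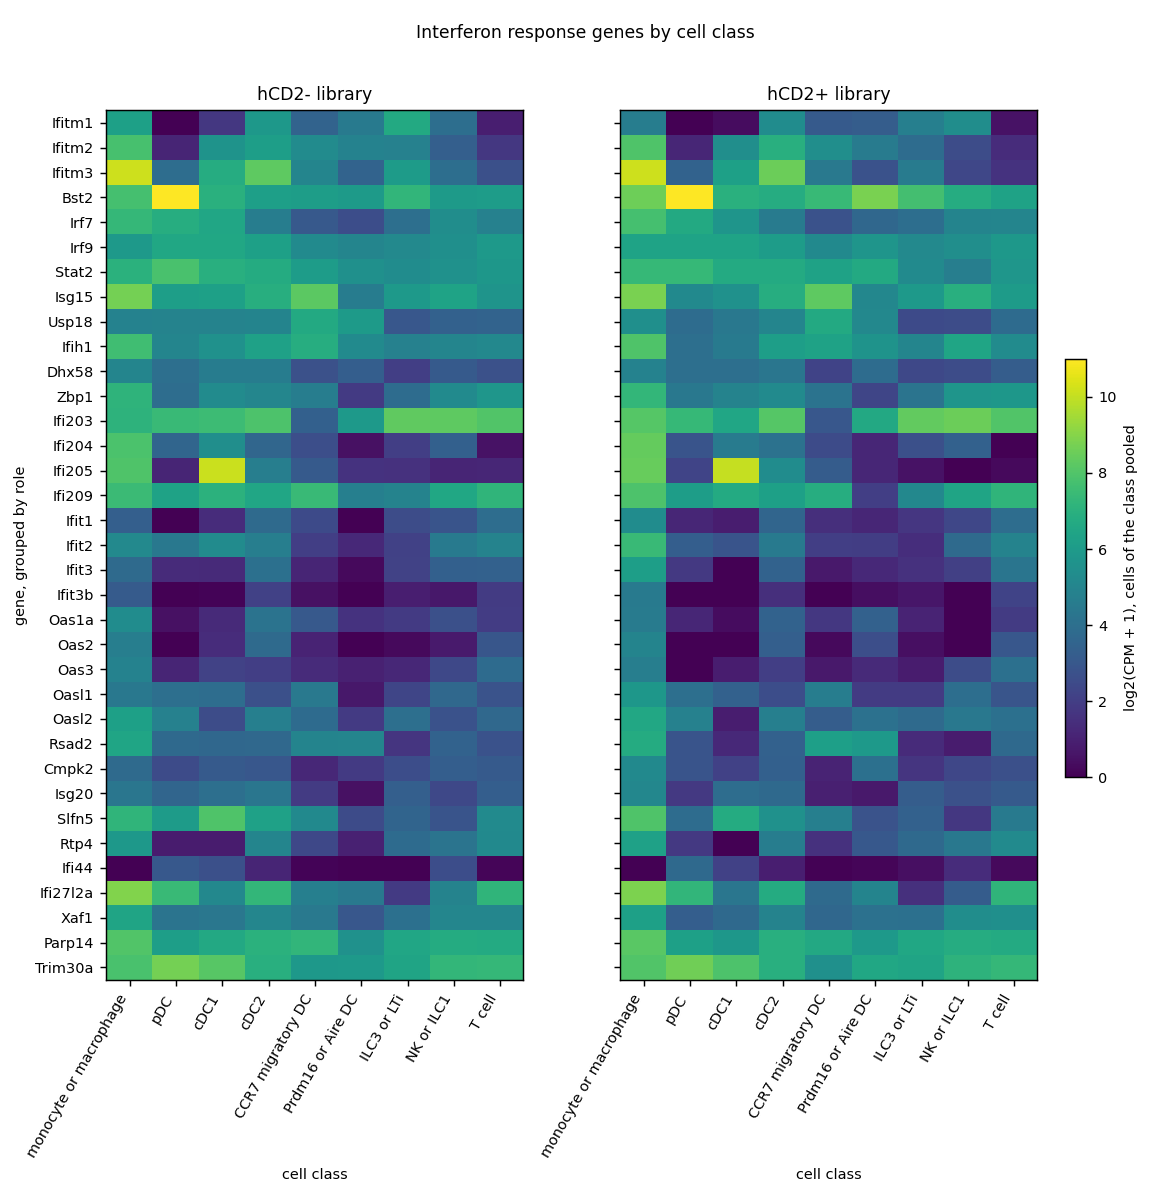
Level of each member, in rows ordered by role, in each class and fraction, in columns, as log2(CPM + 1) of the pooled cells. Bst2 in pDC-like and Ifi205 in cDC1-like cells stand out against their rows, and monocyte or macrophage-like cells are high in most rows.

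Sparse counting limits single cells, so shares of cells with at least 1 UMI were taken after thinning each cell to 5000 UMIs and leaving out shallower cells. Of the hCD2- cells, 862 of 885 T cell-like, 98 of 104 pDC-like, 249 of 254 cDC1-like, 896 of 947 CCR7 migratory DC-like and 857 of 913 cDC2-like cells were deep enough. Bst2 was seen in 95.9% of these pDC-like cells (94.2% before thinning) and in 24.0% of T cell-like cells (52.9% before). Ifi205 was seen in 94.0% of cDC1-like (98.4% before) and 0.58% of T cell-like cells (1.92% before), with monocyte or macrophage-like cells between them at 47.5% (61.4% before) and cDC2-like cells at 5.37% (10.8% before). Isg15 was seen in 42.9% of CCR7 migratory DC-like (68.7% before) and 12.8% of T cell-like cells (29.8% before). Ifitm3 was seen in 49.7% of cDC2-like (71.7% before) and 2.44% of T cell-like cells (7.23% before). The number of members seen per thinned cell had a median between 2 and 5 in each class except monocyte or macrophage-like cells, at 8 (hCD2-) and 9 (hCD2+). The highest count in 1 cell was 28 members, in an hCD2+ monocyte or macrophage-like cell.

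Differences between classes were tested within the hCD2- library on counts summed per mouse, with edgeR's quasi-likelihood test, a TMM scaling and Benjamini-Hochberg adjustment over all genes tested. A gene is said to be called, or to have risen or fallen, at an adjusted p under 0.05. In pDC-like against cDC2-like cells (5 and 12 mice), 4 of the 32 members tested were higher and 12 lower, beside 24.2% higher and 28.5% lower of all genes tested. The median log2 difference of the members was -0.49. Bst2 was 2094 to 2860 CPM in pDC-like cells (median 2470) and 35.8 to 148 CPM in cDC2-like cells (median 60.5), a log2 difference of 5.05 (SE 0.22, adjusted p = 7.288e-15). Irf7, the factor that drives interferon alpha genes, was 73.1 to 182 against 9.31 to 53.2 CPM (log2 2.26, SE 0.34, adjusted p = 7.951e-06). Trim30a, a ubiquitin ligase family member, was 300.1 to 621 against 87.3 to 180 CPM (log2 1.79, SE 0.15, adjusted p = 5.153e-10), and Stat2 was 185 to 283 against 74.2 to 138 CPM (log2 1.06, SE 0.15, adjusted p = 2.329e-06). No mouse overlapped between the classes for these 4 genes. The lower side was led by membrane and RNA effectors. Ifitm3 was 7.70 to 25.7 CPM in pDC-like and 166 to 676 CPM in cDC2-like cells (log2 -4.14, SE 0.47, adjusted p = 1.269e-07). Ifitm1 had no UMI in the 5 pDC-like samples, which makes it at least 37.0-fold lower than in cDC2-like cells when 3 counts over the group are taken as the floor, and Oas2 and Ifit1, also without a UMI, were at least 8.27-fold and 8.17-fold lower. Oas1a had 1 UMI, with a ratio of 33.4 between the classes and a counting interval of 5.97 to 1324.

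Against the same cDC2-like cells, CCR7 migratory DC-like cells were higher for 7 and lower for 17 of 30 members tested (37.2% and 41.4% of all genes), and cDC1-like cells higher for 9 and lower for 10 of 32 (28.6% and 28.9%). The 3 contrasts share the cDC2-like samples. The member shares lie close to those of all genes in cDC1-like cells, and the CCR7 migratory DC-like members leaned to the lower side with a median log2 difference of -0.76. Ifi203 was 2.15 to 18.4 CPM in CCR7 migratory DC-like and 182 to 314 CPM in cDC2-like cells (log2 -4.30, SE 0.17, adjusted p = 1.182e-19), with no overlap. Ifitm3 (log2 -2.91) and Ifi27l2a (log2 -2.20), a small protein of the Ifi27 family, were lower in 12 of 12 mice. Usp18, the protease that removes Isg15 and restrains the receptor, went the other way at 79.8 to 128 against 17.5 to 38.2 CPM (log2 2.18, SE 0.12, adjusted p = 1.891e-16), with no overlap. Its substrate Isg15 was also higher, at 184 to 504 against 48.9 to 225 CPM (log2 1.73, SE 0.22, adjusted p = 2.694e-08), as were Ifi209 (log2 1.33) and the RNA sensor Ifih1 (log2 0.91). In cDC1-like cells Ifi205 was 821 to 1957 CPM against 4.46 to 88.5 CPM (log2 5.59, SE 0.38, adjusted p = 4.681e-13), in 11 of 11 mice. Trim30a (log2 1.34) and Irf7 (log2 1.93) were higher there in all 11 mice, while Ifitm1 (log2 -4.53), Rtp4 (log2 -5.09), a chaperone of membrane receptors, and Oas1a (log2 -3.38), which makes the messenger that activates RNase L, were lower in all 11. Reads of the near-identical Ifi200 genes and of Ifit3 and Ifit3b may be shared or lost between copies, so their single-gene values are uncertain.

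In T cell-like against NK or ILC1-like cells 6 of 16 members were higher and 2 lower, beside 28.8% and 29.0% of all genes. Ifi27l2a was 111 to 219 CPM in T cell-like cells and 2.58 to 141 CPM in NK or ILC1-like cells (log2 2.31, SE 0.32, adjusted p = 3.178e-07), higher in 11 of 12 mice, and the groups overlapped. Slfn5 (log2 2.63), a Schlafen family gene, and Rtp4 (log2 1.07) were the other leading genes. Irf7 (log2 -0.55) and Isg15 (log2 -0.67) were lower in 10 of 12 mice each.

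TMM assumes that most genes do not differ, which may not hold between classes. Scaling by library totals in its place shifted the median of all genes by -0.39 in CCR7 migratory DC-like minus cDC2-like cells, by 0.31 and -0.14 in Prdm16 or Aire DC-like minus CCR7 migratory DC-like and minus ILC3-like cells, and by 0.23 and -0.22 in clusters 23 minus 22 and 22 minus 11 of the Prdm16 or Aire DC-like class, which are described after it. In the other contrasts the shift was under 0.1. No called member changed direction with it, but some counts moved. The share of all genes called under this scaling is not given, so these counts show only how the calls depend on scaling. The T cell-like against NK or ILC1-like split became 5 higher and 3 lower, with Zbp1 no longer called. CCR7 migratory DC-like against cDC2-like cells became 6 and 21, with Parp14 lost, and cDC1-like cells 9 and 11. Prdm16 or Aire DC-like against CCR7 migratory DC-like cells turned from 9 higher and 11 lower to 11 and 10, with Rsad2 lost, and against ILC3-like cells to 11 and 10, with Trim30a lost. Cluster 23 became 12 and 4 against cluster 22, and 14 and 2 against cluster 11 with Parp14 lost, while cluster 22 against 11 became 3 and 1 with Irf9 lost. Between fractions, Ifi27l2a was no longer called in CCR7 migratory DC-like cells, which left 4 lower, and Usp18 no longer within cluster 11, which left none lower.

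Between fractions, most members were called in the Prdm16 or Aire DC-like class, which also had the most changed genes overall. There 13 of 19 members tested were higher and 2 lower in hCD2+ cells (25.3% and 25.5% of all genes), with a median log2 difference of 0.81, over 12 hCD2+ and 11 hCD2- samples. Bst2 was 359 to 596 CPM in hCD2+ samples (median 429) and 23.3 to 150 CPM in hCD2- samples (median 40.5), a log2 difference of 2.90 (SE 0.20, adjusted p = 2.499e-12), and it was higher in 11 of 11 mice with no overlap. In thinned cells it was seen in 70.7% of 1166 hCD2+ and 19.1% of 178 hCD2- cells of the class (85.7% and 46.4% before thinning), against 26.4% and 24.0% of T cell-like cells. Stat2, the response's own STAT, was 88.8 to 128 against 16.5 to 81.2 CPM (log2 1.24, SE 0.15, adjusted p = 6.169e-08), also with no overlap. Its partner Irf9 rose as well (log2 0.81, adjusted p = 7.438e-05), and so did Irf7 (log2 1.39, adjusted p = 0.00221). Oasl2, a relative of the Oas enzymes, was 7.90 to 27.2 against 0 to 10.8 CPM (log2 2.54, SE 0.41, adjusted p = 7.071e-06), on 13 hCD2- UMIs in all. Cmpk2 (log2 2.66), a nucleotide kinase beside Rsad2 in the genome, and Oas1a (log2 2.38) were at 0 CPM in the median hCD2- sample. Isg15 rose by log2 0.91 (adjusted p = 0.02531), from a median of 7.38 to 29.0 CPM. Usp18 went against this, at 25.5 to 47.8 in hCD2+ and 31.1 to 79.5 CPM in hCD2- samples (log2 -0.80, SE 0.13, adjusted p = 1.108e-05), lower in 10 of 11 mice. Ifitm1 was the other member that fell (log2 -1.33, SE 0.38, adjusted p = 0.004414). Ifi27l2a (log2 0.70), Rsad2 (log2 0.95), Parp14 (log2 0.40) and Ifitm2 (log2 -0.19) did not pass the test.

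This class was made of 3 clusters that the fractions filled unequally. Cluster 11 held 281 hCD2+ and 192 hCD2- cells, cluster 22 held 359 and 14, and cluster 23 held 611 and 1. In hCD2+ cells the median Aire level was 169, 558 and 12.995 CPM in clusters 11, 22 and 23, and the median Prdm16 level 268, 1907 and 3157 CPM. Free RNA of that library held 67.9 CPM of Aire and 321 CPM of Prdm16. The medians of Prdm16 in cluster 11 and of Aire in cluster 23 were not above these values. They give the make-up of free RNA and not the amount that cells held, which was not measured. In hCD2+ cells of cluster 11 the median of Itgb8 was 3.67 CPM against 92.6 CPM in free RNA, and that of Pigr 0 against 13.9 CPM. Cluster 11, which held most hCD2- cells of the class, took its name from 3 of 10 listed markers, without Prdm16, and also had 3 of the pDC markers. Within cluster 11, the one with enough cells of both fractions, 1 of 10 members tested was higher and 1 lower (2.77% and 2.82% of all genes). Bst2 was 47.0 to 119 CPM in hCD2+ and 15.8 to 79.6 CPM in hCD2- samples (log2 1.01, SE 0.21, adjusted p = 0.003361), higher in 9 of 10 mice, and Usp18 was lower (log2 -0.59, SE 0.18, adjusted p = 0.04698). With at least 20 cells per sample neither was called, with Bst2 at log2 1.10 and Usp18 at -0.67. In free RNA Bst2 was 124 CPM in the hCD2- and 214 CPM in the hCD2+ library, and Usp18 33.5 and 21.5 CPM. The part of free RNA in these and in the class-wide differences was not tested. Stat2 did not pass within cluster 11, at log2 -0.39 (SE 0.21, adjusted p = 0.3158), with medians of 33.8 and 41.5 CPM. The class-wide difference of Stat2 was thus not seen within cluster 11, and that of Bst2 was smaller there.

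The 3 clusters differed from each other within the hCD2+ library, where 12 mice gave each. Rsad2, or viperin, which makes a chain-terminating nucleotide, was 143 to 313 CPM in cluster 22, 0 to 9.25 CPM in cluster 11 and 0.48 to 39.2 CPM in cluster 23. It was higher in cluster 22 than in cluster 11 by log2 6.60 (SE 0.25, adjusted p = 1.776e-19) and lower in cluster 23 than in cluster 22 (log2 -3.78, SE 0.28, adjusted p = 3.622e-13). Its genomic neighbour Cmpk2 ran the other way, at 0 to 9.17 CPM in cluster 22 and 11.7 to 42.5 CPM in cluster 23 (log2 2.38 for cluster 23 minus 22, SE 0.28, adjusted p = 1.251e-08). Bst2 was 627 to 943 CPM in cluster 22 and 350 to 507 CPM in cluster 23 (log2 -1.10, SE 0.07, adjusted p = 2.044e-14), both far above the 47.0 to 119 CPM of cluster 11. Ifi203 was 103 to 205 CPM in cluster 23 and 3.55 to 21.1 CPM in cluster 22 (log2 3.24, SE 0.16, adjusted p = 3.371e-17). Oasl2 was 12.4 to 39.7 against 0 to 5.93 CPM (log2 3.46, SE 0.32, adjusted p = 6.94e-11), and Ifit1, with 43 UMIs in cluster 23 and none in cluster 22, was at least 6.44-fold higher. Stat2 did not differ detectably between clusters 23 and 22 (log2 0.02, SE 0.11, adjusted p = 0.8918) and was higher in both than in cluster 11, by log2 1.87 (SE 0.13, adjusted p = 1.362e-13) and 1.80 (SE 0.15, adjusted p = 1.176e-11). Counted over the members tested, 10 of 17 were higher and 4 lower in cluster 23 than in cluster 22 (33.9% and 33.1% of all genes). Against cluster 11, 15 of 17 were higher and 2 lower in cluster 23 (31.4% and 32.4%), and 4 of 11 higher and 1 lower in cluster 22 (30.8% and 32.9%). The 3 contrasts share samples. The lower members were Usp18 and Ifitm2 for cluster 23 against 11, and Ifi203 for cluster 22 against 11. Cluster 22 was thus high in Bst2, Rsad2 and Stat2 but low in Oasl2 and Ifi203, and cluster 23 was high in all of these but Rsad2, with Irf9 and Ifih1 above cluster 22 as well.

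**Figure D3:**
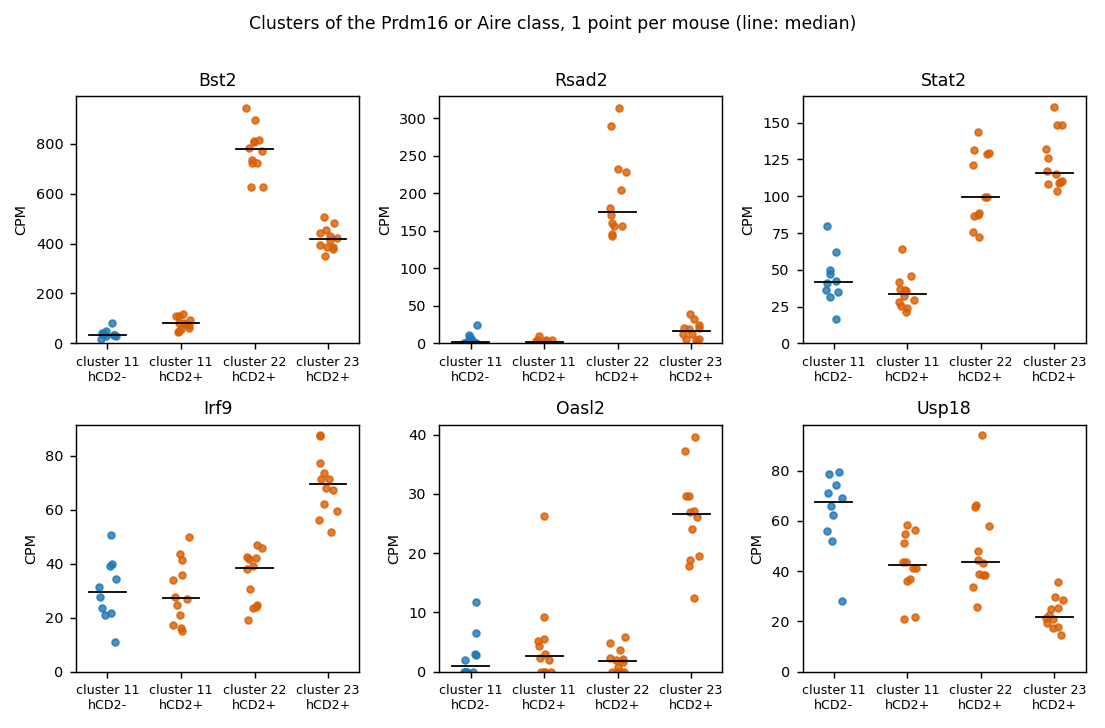
CPM of Bst2, Rsad2, Stat2, Irf9, Oasl2 and Usp18 in cluster 11 of both fractions and in clusters 22 and 23 of the hCD2+ fraction, with 1 point per mouse and a line at the median. Rsad2 is highest in cluster 22 at 143 to 313 CPM and Oasl2 in cluster 23 at 12.4 to 39.7 CPM, while Stat2 lies above cluster 11 in both.

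Compared with other hCD2+ classes, Prdm16 or Aire DC-like cells were higher for 9 and lower for 11 of 24 members against CCR7 migratory DC-like cells (39.3% and 36.2% of all genes). Against ILC3-like cells they were higher for 12 and lower for 9 of 26 (41.2% and 40.5%), and against cDC2-like cells higher for 2 and lower for 14 of 25 (31.2% and 28.4%). The Prdm16 or Aire DC-like samples are shared by the 3 contrasts. Bst2 was higher in each, by log2 1.10 (SE 0.12, adjusted p = 1.468e-09), 1.23 (SE 0.09, adjusted p = 2.385e-13) and 2.33 (SE 0.17, adjusted p = 7.43e-12), and its groups did not overlap in any of them. Ifi209 was lower in each, at 0.51 to 5.33 CPM against 76.3 to 147, 26.3 to 48.1 and 24.3 to 179 CPM, with log2 differences of -5.46, -3.37 and -4.45. Isg15 was lower than in CCR7 migratory DC-like cells, at 16.5 to 64.4 against 150 to 630 CPM (log2 -3.56, SE 0.22, adjusted p = 1.01e-14), with no overlap. Usp18 was lower than in CCR7 migratory DC-like (log2 -1.86, adjusted p = 2.076e-15) and higher than in ILC3-like cells (log2 3.05, adjusted p = 5.889e-16). Ifi203 was higher than in CCR7 migratory DC-like (log2 3.52, adjusted p = 1.26e-13) and lower than in ILC3-like cells (log2 -1.59, adjusted p = 3.504e-15). Rsad2, nearly unseen in ILC3-like cells at 0 to 4.31 CPM, was 34.3 to 92.8 CPM here (log2 5.38, SE 0.25, adjusted p = 5.121e-18). Against cDC2-like cells Ifitm3 was lower, at 1.25 to 29.3 against 151 to 591 CPM (log2 -5.70, SE 0.35, adjusted p = 6.25e-13), and so was Ifitm2 (log2 -2.27).

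In CCR7 migratory DC-like cells 2 of 21 members tested were higher and 5 lower in the hCD2+ fraction (17.0% and 16.0% of all genes), with a median log2 difference of -0.40 over 12 mice in each. Bst2 was 106 to 234 CPM in hCD2+ and 48.4 to 102 CPM in hCD2- samples (log2 1.29, SE 0.15, adjusted p = 1.749e-07), higher in 12 of 12 mice with no overlap. Rsad2 was 30.6 to 120 against 17.6 to 91.4 CPM (log2 1.14, SE 0.25, adjusted p = 0.0008412), higher in 11 of 12 mice. The members that fell were Ifi209 (log2 -0.70, SE 0.09, adjusted p = 1.269e-06), Parp14 (log2 -0.55, SE 0.13, adjusted p = 0.001898), an ADP-ribosyl transferase, Xaf1 (log2 -0.88, SE 0.24, adjusted p = 0.0057), Ifih1 (log2 -0.50) and Ifi27l2a (log2 -0.95). Ifi209, Parp14 and Xaf1 were lower in 12 of 12 mice. Fitted with the mouse as a block, 11 members were called here in place of 7, the added ones being Ifitm3, Slfn5, Trim30a and Zbp1, all lower. The cluster mix moved with these differences as well. Cluster 19, with 223 of the 743 hCD2+ and 9 of the 947 hCD2- cells, had Rsad2 at 107 to 268 CPM, Bst2 at 199 to 371 CPM and Ifi209 at 0 to 7.58 CPM over 8 hCD2+ mice, and cluster 0, with 325 and 795 cells, had Rsad2 at 8.998 to 102, Bst2 at 41.4 to 226 and Ifi209 at 71.8 to 158 CPM in its hCD2+ samples. Within cluster 0 alone, Ifi209 was the 1 of 17 members tested that was called, lower by log2 -0.38 (SE 0.11, adjusted p = 0.03181) and in 12 of 12 mice, and none was higher (3.24% lower and 4.38% higher of all genes). Bst2 (log2 0.41, adjusted p = 0.2576) and Rsad2 (log2 -0.06, adjusted p = 0.948) did not pass there. With the mouse as a block, which pairs the samples of each animal, Ifi209 was again lower and Isg15 was called higher (log2 0.57, SE 0.16, adjusted p = 0.02516, against 0.06954 without the block).

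In ILC3-like cells 1 of 19 members was higher and 2 lower in hCD2+ samples (1.90% and 3.13% of all genes). Bst2 was 177 to 295 CPM in hCD2+ and 99.5 to 206 CPM in hCD2- samples (log2 0.47, SE 0.12, adjusted p = 0.0129), higher in 11 of 12 mice. Ifitm3 fell by 1.51 on the log2 scale (SE 0.30, adjusted p = 0.001969) and Ifitm1 by 2.14 (SE 0.44, adjusted p = 0.002967), each in 10 of 12 mice. Mouse 2, with 10 hCD2- cells, was the highest hCD2- sample for both (257 and 660 CPM), and without it the differences were -1.25 and -1.63, both still called. With at least 20 cells per sample Ifitm3 alone was called, with Bst2 at 0.34 and Ifitm1 at -1.24, and thinning left Bst2 at 0.21 without a call. In free RNA Ifitm3 was 148 CPM in the hCD2- and 58.5 CPM in the hCD2+ library, and Ifitm1 23.2 and 11.02 CPM. Bst2 was 124 CPM in hCD2- and 214 CPM in hCD2+ free RNA. Free RNA thus differed in the direction of each of these members, and its part in the result was not tested. In cDC2-like cells (9 hCD2+ and 12 hCD2- samples) none of 31 members was higher and 3 were lower (7.91% and 6.13% of all genes), namely Ifitm1 (log2 -0.94, SE 0.24, adjusted p = 0.007846), the RNA exonuclease Isg20 (log2 -0.86, SE 0.27, adjusted p = 0.03386) and Ifi27l2a (log2 -0.59, SE 0.20, adjusted p = 0.04947), each in 7 of 9 mice. With the mouse as a block Ifitm1 was the 1 called, with at least 20 cells per sample none of these 3 was called, and without mouse 4, whose hCD2+ cDC2-like sample was high for several members, 9 were. These 3 were also lower in hCD2+ than in hCD2- free RNA, with Isg20 at 7.04 against 11.4 CPM and Ifi27l2a at 36.6 against 125 CPM. The part of free RNA in the cDC2-like differences was not tested. The fractions filled the clusters of this class unequally as well, with 91 hCD2+ and 716 hCD2- cells in cluster 3 and 80 and 197 in cluster 13, and the difference within either was not tested, since fewer than 6 hCD2+ mice had 10 cells in it. In T cell-like cells edgeR called 0 of 17 members (0.551% of all genes in either direction), with 1 of them at an unadjusted p under 0.05, and DESeq2 also called 0. Whether a member's fraction difference itself differed between classes was not tested.

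**Figure D4:**
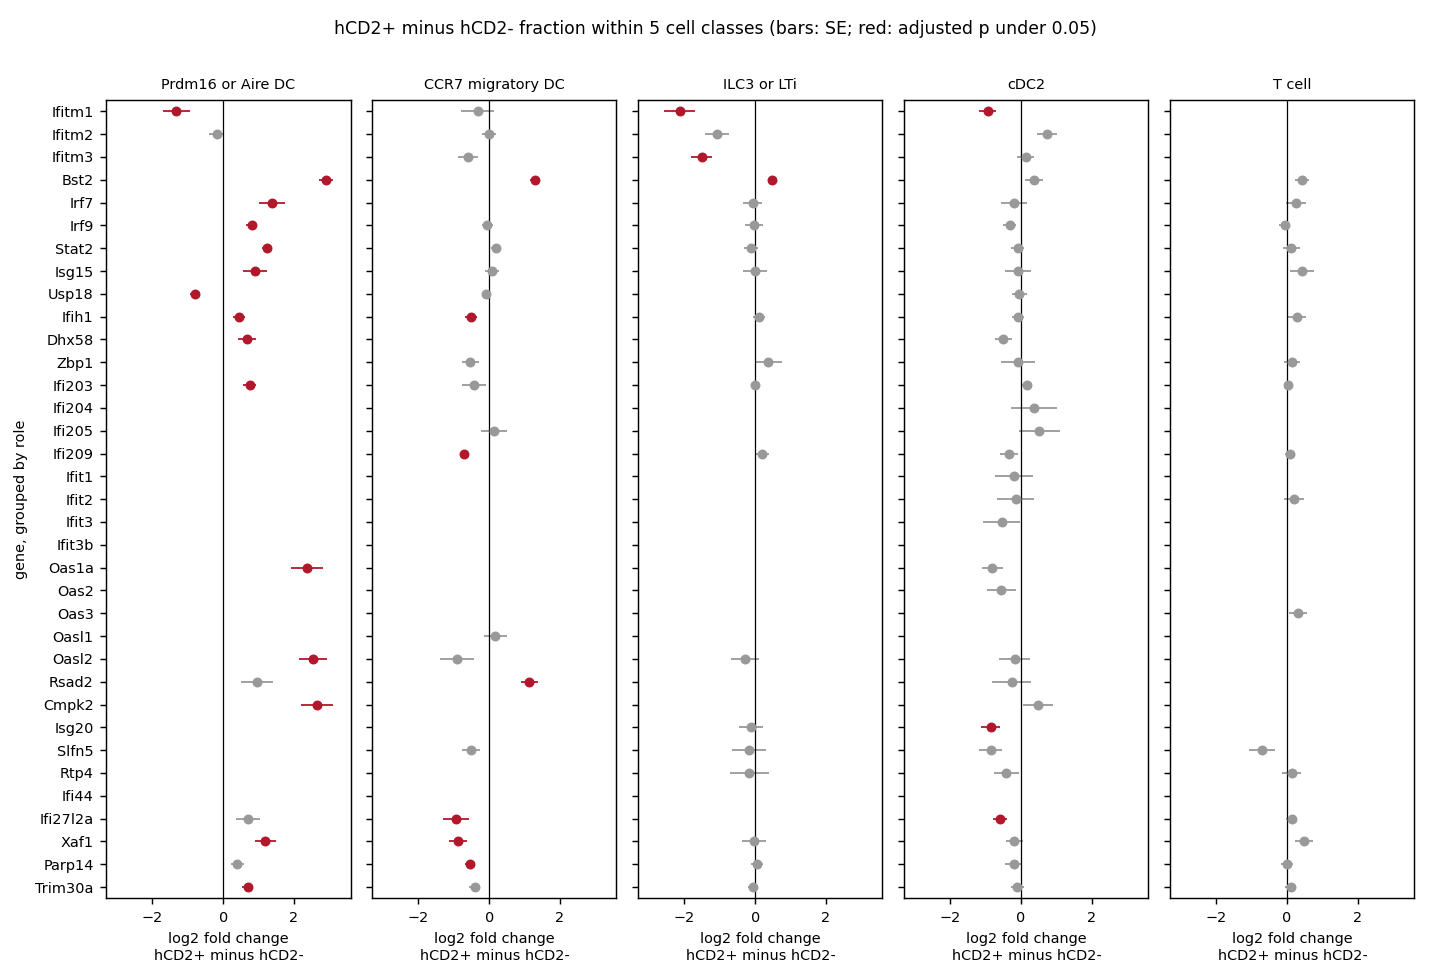
Log2 difference between hCD2+ and hCD2- samples of each member tested, by class, with bars of 1 SE on each side and called members in red. Most called members of the Prdm16 or Aire DC-like class lie above 0, with Bst2 at 2.90, and most of the CCR7 migratory DC-like class below 0.

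The mice also differed from one another. A mouse term over 118 summed samples, with class and fraction in the model, called 22 of 33 members tested, while 6.31% of all 12186 genes tested were called. The leading members were Zbp1 (adjusted p = 3.715e-12), a sensor of left-handed nucleic acids, Ifitm3 (adjusted p = 2.882e-09) and Xaf1 (adjusted p = 6.95e-08), followed by Ifi204, Irf9, Parp14 and Isg15. Rsad2, Usp18, Ifi203, Ifi209, Ifih1, Oas2, Cmpk2, Ifitm1, Ifitm2, Isg20 and Oasl1 were not called. With each library fitted alone, 4 of 32 members were called in the hCD2+ library (1.48% of all genes) and 11 of 33 in the hCD2- library (2.60%). The 4 were Xaf1, Zbp1, Irf9 and Parp14.

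For each mouse, the deviation of a member from the mean over mice was averaged over classes on the scale log2(CPM + 1). In mouse 12, all 22 called members lay above 0 in both libraries, with medians of 0.66 (hCD2-) and 0.36 (hCD2+). Mouse 6 had 20 of 22 above 0 in both libraries (medians 0.53 and 0.56) and mouse 9 had 17 (medians 0.31 and 0.28). On the low side, mouse 10 had 18 and mouse 1 had 17 below 0 in both, with medians of -0.28 and -0.52 in mouse 10 and -0.46 and -0.30 in mouse 1. Other mice differed between their fractions, as mouse 2 had 19 called members above 0 in the hCD2- and 5 in the hCD2+ library. Zbp1 deviated by 1.03 and 0.80 in mouse 12, by 0.89 and 1.2 in mouse 6, and by -0.30 and -0.92 in mouse 10. Ifitm3 was highest in mouse 12, at 1.30 and 1.39. Isg15 was higher in mouse 6 (0.65 and 0.62), and lower in mouse 1 (-0.94 and -0.59), in both libraries. These counts describe members picked by the same test and add no evidence to it.

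**Figure D5:**
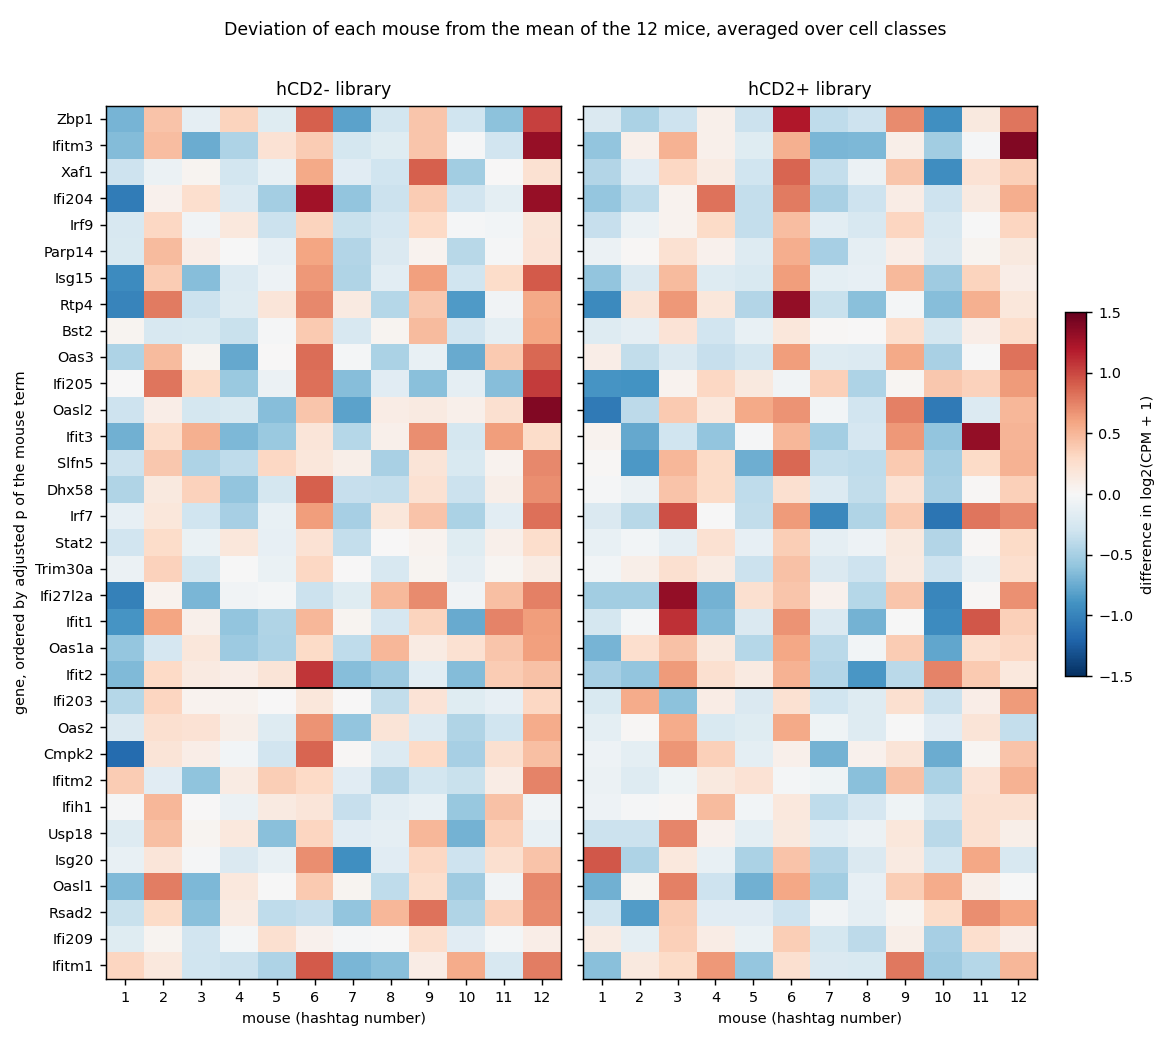
Mean deviation of each member, in rows ordered by the adjusted p of the mouse term with a line below the last called member, from its mean over mice on the log2(CPM + 1) scale, in each of 12 mice and both libraries, in columns. Mice 12, 6 and 9 are above 0 for most members in both libraries, and mice 10 and 1 below.

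Over the 12 mice, the deviation of 8 members was compared between the libraries, with 100000 permutations and adjustment over the 8 relations. Stat2 had Pearson's r of 0.73 (permutation p = 0.00676, adjusted 0.0541) and Spearman's rho of 0.82 (permutation p = 0.0018, adjusted 0.0144), and r was 0.80 without mice 1 and 7, the pair farthest from the median. Bst2 had r of 0.68 (permutation p = 0.01424, adjusted 0.0570) and rho of 0.73 (permutation p = 0.01008, adjusted 0.0403), but r was 0.43 without mice 9 and 12, so that relation rests on those mice. For Isg15, r was 0.55 (adjusted 0.114) and rho 0.52 (adjusted 0.240), and the remaining 5, Irf7, Ifi27l2a, Ifit3, Ifitm3 and Rsad2, had r between 0.04 and 0.60 and did not pass. Cell depth moved with mouse 6, whose cells had the highest median UMIs in both libraries (26733.5 and 19035), but mouse 12 had the second highest hCD2- depth (25981.5) and the lowest hCD2+ depth (16741). Hspa1a, a heat shock gene that responds to handling, was below 0 in mice 1 to 6 and above 0 in mice 7 to 12 in both libraries. The exception was mouse 4, at 0.06 in the hCD2+ library. Hspa1a was highest in mice 7, 8, 10 and 12, a set that holds both high and low mice for the members. The part of depth, handling, sex and litter in the mouse differences was not tested, and the labels used here give no sex, litter or processing day.

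Of the ligands, Ifnb1 had 27 UMIs in 8 of the 11861 cells, 14 of them in 1 hCD2+ monocyte or macrophage-like cell of mouse 6. The feature table held 14 interferon alpha genes, and 1 of them had any UMI, namely Ifna2 with 6 UMIs in 3 cells. Ifng, the type II interferon, had 3251 UMIs in 424 cells, with up to 137 UMIs in 1 NK or ILC1-like cell. Both type I receptor chains were detected in each class. Ifnar2 was 530 to 827 CPM in hCD2- pDC-like cells and 117 to 165 CPM in cDC2-like cells (log2 2.20), and Ifnar1 was 252 to 350 against 61.0 to 92.8 CPM (log2 1.97), with no overlap for either. In the Prdm16 or Aire DC-like class Ifnar2 was higher in hCD2+ samples, at 90.9 to 123 against 13.96 to 96.0 CPM (log2 0.83, adjusted p = 6.906e-06). Within the largest cluster of that class shared by the fractions, Ifnar2 was not called (log2 0.01, SE 0.16, adjusted p = 0.9849). Ifnar1 was lower in that class than in CCR7 migratory DC-like cells of the hCD2+ library, at 28.7 to 44.4 against 49.8 to 89.5 CPM (log2 -1.35), with no overlap.

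The other genes of the pathway, a list of 32 ligands, receptors, kinases, sensors, factors and inhibitors in the feature table, was counted in the same way. Between fractions, 1 of 21 tested was higher and 10 lower in CCR7 migratory DC-like cells (17.0% and 16.0% of all genes), and 0 higher and 2 lower of 23 in ILC3-like cells (1.90% and 3.13%). In the Prdm16 or Aire DC-like class 5 were higher and 6 lower of 21, shares close to those of all genes (25.3% and 25.5%), and in cDC2-like cells 1 was higher and 0 lower of 21 (7.91% and 6.13%). Irf8, a factor of DC development, was the higher one in CCR7 migratory DC-like cells (log2 1.33) and the leading one in the Prdm16 or Aire DC-like class, at 320 to 443 against 46.7 to 149 CPM (log2 2.32, SE 0.12, adjusted p = 9.721e-15). Jak2, the kinase of the interferon gamma receptor, was lower there, at 237 to 411 against 535 to 1324 CPM (log2 -1.38). The cluster mix of both these classes differed between fractions, as given above. In the largest shared CCR7 migratory DC-like cluster none of 21 was called (4.38% higher and 3.24% lower of all genes). Irf8 was at log2 0.11 there (SE 0.16, adjusted p = 0.7472). In the largest shared Prdm16 or Aire DC-like cluster none of 18 was called (2.77% and 2.82%). There Irf8 was at log2 0.925 (SE 0.32, adjusted p = 0.08849) and Jak2 at -0.41 (SE 0.14, adjusted p = 0.09161). Between hCD2- classes, each against cDC2-like cells, 8 of 23 were higher and 5 lower in pDC-like cells (24.2% and 28.5% of all genes), 15 of 22 higher and 6 lower in CCR7 migratory DC-like cells (37.2% and 41.4%), and 9 of 23 higher and 7 lower in cDC1-like cells (28.6% and 28.9%). Tlr7, the sensor of single-stranded RNA, was 128 to 211 CPM in pDC-like and 1.58 to 6.37 CPM in cDC2-like cells (log2 5.29), and Tlr3, the sensor of double-stranded RNA, 121 to 268 CPM in cDC1-like and 1.78 to 9.46 CPM in cDC2-like cells (log2 5.68). Ifnar2 was higher in cluster 23 than in cluster 22 (log2 0.84).

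A list of 18 genes induced by interferon gamma was followed beside the members, since the responses overlap and 2 of its genes, Irf1 and Socs1, are also in the pathway list. In the Prdm16 or Aire DC-like class 6 of 16 were higher and 2 lower in hCD2+ samples (25.3% and 25.5% of all genes), with the immunoproteasome gene Psmb8 at 223 to 306 against 36.1 to 150 CPM (log2 1.40) and the guanylate-binding gene Gbp4 lower (log2 -1.36). In CCR7 migratory DC-like cells 5 of 16 were lower and none higher (16.0% and 17.0% of all genes), among them Nlrc5 (log2 -0.40), the activator of MHC class I genes, Gbp2 (log2 -0.69) and Gbp5 (log2 -0.48). In the largest cluster of that class shared by the fractions, 1 of 14 was higher and none lower (4.38% and 3.24% of all genes). The higher gene was Psmb8 (log2 0.38, SE 0.09, adjusted p = 0.006911). Nlrc5 (log2 -0.19), Gbp2 (log2 0.09) and Gbp5 (log2 -0.15) were not called there. In the largest shared Prdm16 or Aire DC-like cluster none of 9 was called (2.77% and 2.82%). Psmb8 was at log2 0.49 there (SE 0.22, adjusted p = 0.2042), and Gbp4 was not tested. Of the gamma list 15 of 18 genes were called for the mouse term, led by Gbp2 (adjusted p = 1.5e-14), Cxcl9 and Psmb9, against 22 of 33 members, 3 of 25 pathway genes and 6.31% of all genes. With each library alone, 10 of 18 gamma genes were called in the hCD2+ (1.48% of all genes) and 13 of 18 in the hCD2- library (2.60%).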

How the data were processed

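Single cells of 12 mice were profiled as 2 libraries, 1 per fraction. Per the submitters' processing notes the authors used Cell Ranger 8.0.1 and mm10, and the deposited matrices hold raw counts of UMIs per gene and hashtag counts per droplet. Per the labels each hashtag marks 1 mouse. The deposited features and barcodes gave gene and droplet names, and no deposited cell annotation was used.

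Called droplets and their mice came from the authors' deposited assignment table, whose posterior probability of each hashtag is a fraction. Droplets were kept with 1 hashtag, at least 500 genes and at most 10% mitochondrial counts. Multiplets (465 hCD2- and 806 hCD2+), blanks (168 and 295) and unassigned droplets (63 and 285) were left out. No doublet caller was run beyond the hashtags, and doublets within a mouse remain. Clusters came from scanpy 1.11.5 with 2000 variable genes, 30 components, 15 neighbours and Leiden resolution 1.0, without the members, the pathway genes and the gamma list. A cluster took a class name from at least 3 markers that were 2-fold higher. Of 25 clusters, 7 with few UMIs or mixed markers got no class (15.6% of hCD2- and 18.1% of hCD2+ cells).

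For each mouse in each library, the counts of a class were added up where it had 10 or more cells, and tested with edgeR 4.0.16 (R 4.3.3) by quasi-likelihood, with TMM, filterByExpr and Benjamini-Hochberg adjustment. Fraction contrasts needed 6 mice per arm, class contrasts 3 and the mouse term 10 per class. Monocyte or macrophage-like cells had too few hCD2- mice for their contrast. Alternatives were another scaling, DESeq2 1.42.0, no filter, at least 20 cells, thinning to 5000 UMIs, the mouse as a block, and mice or clusters left out. Tested on simulated data, the CCR7 migratory DC-like fraction contrast (8710 genes) recovered 90% of 2-fold and 100% of 4-fold changes with 13 false calls, and the mouse term 92% and 100% with 10. The simulated counts were independent draws with the same dispersion for all genes and the same mean profile for all samples. The mice raised for the mouse term were those described above as high for the members. Class differences and noise shared by samples of an animal were absent, so the simulation checks the code and not the error rate in these data.

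Same-numbered samples come from the same animal. In the CCR7 migratory DC-like class, their deviations correlated at 0.144 on average (0.0228 to 0.289 over 8994 genes) against -0.0128 for different animals. The correlation was above 0.1 in 9 of 12 pairs, and 8 of 12 hCD2- samples correlated best with the hCD2+ sample of their own number. All members may be named, and those given by mouse are the called ones with the 3 smallest adjusted p in each direction, plus 8 fixed members. The members, lists and some alternatives were chosen with earlier results of these data known. Intervals and floors cover counting error only. The single-gene values of some genes in the lists are not reported here.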

Additional observations from a re-analysis of the deposited data

Results flagged for a closer look

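In groups of 4 to 10 mice, a mouse far from the others was looked for in 27 sets of values, and 7 stood apart by Dixon's 95% limit. Chance gives about 1 in 20 for independent sets of normal values. The sets here share mice, and the sum contains the single genes, so the flags are not independent. Of the 7 flags, 5 were mouse 4 in hCD2+ cDC2-like cells, against 8 other mice. Its sum of the members was 3885.7 CPM, with the others at 1190 to 2413, its Isg15 326.51 (27.7 to 173), its Irf7 56.294 (8.09 to 30.4), its Ifit3 40.813 (0 to 17.3) and its Rsad2 50.665 CPM (0 to 7.39). In the same class Bst2 was 182.15 CPM in mouse 7, with the others at 50.2 to 108. In hCD2+ T cell-like cells Ifit3 was 111.67 CPM in mouse 3, with the others at 2.50 to 23.8. Oas1a was higher in hCD2+ samples in 11 of 11 mice in the Prdm16 or Aire DC-like class and lower in 12 of 12 in CCR7 migratory DC-like cells, where it was too low for the fit. The difference between these classes was not tested.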

How the results depend on the processing

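Over all settings, 144 counts of called members and median sums stayed within 1.5 times or 1 SD of the reported value and 33 did not, and no named member reversed. Thinning to 5000 UMIs leaves fewer genes to test, and its counts are given with the share of all genes called in either direction. Between fractions it called 4 of 10 members in CCR7 migratory DC-like (24.9%), 5 of 9 in Prdm16 or Aire DC-like (38.9%) and 1 of 16 in cDC2-like cells (6.43%). In the shared CCR7 cluster it called 0 of 7 (8.69%). No member could be tested in the shared Prdm16 or Aire cluster (5.79%). For pDC-like, CCR7 migratory DC-like and cDC1-like against cDC2-like cells thinning gave 10 of 20 (39.6%), 14 of 15 (73.5%) and 8 of 14 (51.2%). For T cell-like against NK or ILC1-like cells it gave 4 of 8 (50.9%). Prdm16 or Aire DC-like cells had 10 of 12 (65.5%), 13 of 15 (72.3%) and 9 of 13 (43.1%) against CCR7 migratory DC-like, ILC3-like and cDC2-like cells. Clusters 23 against 22, 23 against 11 and 22 against 11 had 4 of 6 (64.3%), 5 of 6 (60.7%) and 2 of 2 (59.1%). The mouse term had 12 of 23 (4.58% of all genes), with 2 of 21 in hCD2+ (1.67%) and 6 of 18 in hCD2- cells alone (2.34%). At least 20 cells per sample gave 1 in ILC3-like cells and 0 in each shared cluster, and the pDC-like contrast could not be fitted. DESeq2 gave 5 in cDC2-like cells, 2 in the shared CCR7 cluster and 9 for the hCD2+ mouse term, and no filter gave 19 for T cell-like against NK or ILC1-like cells, 23 and 18 for clusters 23 and 11 against 22, and 8 for the hCD2+ mouse term. Library totals gave 1 in the shared Prdm16 or Aire cluster.

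With the replicate block, pairing the samples of each mouse, 11 members were called in CCR7 migratory DC-like cells, 1 in cDC2-like cells and 2 in the shared CCR7 cluster, and no other count moved by over 1.5 times. Leaving out 1 mouse in turn gave 20 to 24 called members for the mouse term (4.18% to 6.19% of all genes). Without mouse 4 in cDC2-like cells 9 were called. The cause of these changes was not tested. No share of all genes is given for the block, at least 20 cells, DESeq2, no filter, library totals or mouse 4 left out. Those counts show only how the calls depend on the setting. Low counts limit the Oas, Ifit and Rtp4 genes in most classes.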
